A study of Mus musculus with 20 samples.

Results

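The circadian clock genes described here are 10 genes of the molecular clock: Arntl, Per1, Per2, Per3, Cry1, Cry2, Nr1d1, Nr1d2, Dbp and Nfil3. They were chosen by name, with earlier results of these data known, and they are 10 of the 23412 gene symbols in the deposited tables. Arntl is the older symbol of the gene for BMAL1. All 10 reached 1 TPM (transcripts per 1000000, which corrects for gene length and sums to the same total in each library) in every library that was measured.

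RNA was sequenced from the hippocampus and the amygdala of 21-day-old mice, with 4 control, 3 NCoR1-KO and 3 SMRT-KO libraries for each tissue, 20 in all. NCoR1 and SMRT are corepressors, proteins that nuclear receptors recruit to silence genes, and the knockouts joined the Snap25-IRES2-cre driver, which acts in neurons throughout the brain, to floxed Ncor1 alleles (NCoR1-KO) or floxed SMRT alleles (SMRT-KO). The labels call the remaining group control and do not say whether it carried Cre or a floxed allele. They also give neither the hour of tissue collection nor whether libraries of a group came from separate animals, so p-values measure only the spread between these libraries, which may be in part technical. The driver leaves cells that do not express Snap25, such as glia, with intact alleles. In bulk tissue, fewer cells of a type and less RNA per cell cannot be told apart.

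The clock is a feedback loop of transcription. BMAL1, the product of Arntl, pairs with CLOCK or NPAS2 and switches on genes that carry E-boxes, among them the Per and Cry genes, Nr1d1, Nr1d2 and Dbp. PER and CRY proteins then block BMAL1. The nuclear receptors REV-ERBα and REV-ERBβ, made from Nr1d1 and Nr1d2, silence Arntl and Nfil3 through ROR elements, and they do so by recruiting NCoR1 together with the histone deacetylase HDAC3. ROR receptors activate the same elements. DBP and NFIL3 bind D-boxes, DBP as an activator and NFIL3 as a repressor. Because each gene peaks at its own hour, the level in a tissue taken at a single time depends on that hour.

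These elements were looked for in the 300 bases from 250 before to 50 after each RefSeq start (GRCm38.p6), and the matches are shown because the loop runs through them. A window was given for 9 of the 10 genes. Both strands were searched for the E-box CACGTG, its variant CACGTT, the D-box TTATGTAA and the core of the ROR element TAGGTNA, and the matches are in capitals, in the letters of the gene's own strand. The 2 stretches of Cry1 overlap each other, and their capitals do not.
Arntl, ROR element, chr7:113207494-113207523, plus strand: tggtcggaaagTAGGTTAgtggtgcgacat
Arntl, ROR element, chr7:113207530-113207559, plus strand: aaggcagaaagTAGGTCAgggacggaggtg
Nfil3, ROR element, chr13:52981033-52981062, minus strand: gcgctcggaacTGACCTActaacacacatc
Per1, E-box, chr11:69098771-69098800, plus strand: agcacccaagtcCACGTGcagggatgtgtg
Cry1, E-box, chr10:85185097-85185126, minus strand: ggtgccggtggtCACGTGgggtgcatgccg
Cry1, E-box variant, chr10:85185116-85185145, minus strand: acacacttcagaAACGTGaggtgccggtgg
Cry2, E-box variant, chr2:92434218-92434247, minus strand: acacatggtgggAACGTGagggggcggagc
Nr1d1, E-box variant, chr11:98775388-98775417, minus strand: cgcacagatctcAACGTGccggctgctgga
Per3, D-box, chr4:151044852-151044881, minus strand: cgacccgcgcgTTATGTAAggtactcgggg
Per3, D-box, chr4:151044805-151044834, minus strand: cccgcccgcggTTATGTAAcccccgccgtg
The capitals in Nfil3 and in the E-box variants are the reverse complement of the letters searched. The ROR core was in the windows of Arntl and Nfil3 and in 8.29% of all 32851 windows. The E-box was in those of Per1 and Cry1 (7.15% of all windows), the E-box variant in those of Cry1, Cry2 and Nr1d1 (4.68%), and the D-box in that of Per3 alone (0.938%). In these letters the windows of Dbp and Nr1d2 held no match. A match is a description of the sequence and not a measured site.

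The targeted gene was lower in the libraries labelled NCoR1-KO in each tissue. In amygdala the level of Ncor1 fell from 108.5 ± 25.1 TPM (SD, n = 4) in controls to 35.2 ± 3.51 TPM (SD, n = 3), and in hippocampus it was 117 ± 24.7 against 49.2 ± 10.4 TPM. In limma's test over all genes with Benjamini-Hochberg adjustment (threshold 0.05), the log2 differences of (TPM + 1) were -1.57 ± 0.16 (SE, adjusted p = 0.00732) and -1.22 ± 0.20 (adjusted p = 0.79, unadjusted p = 0.000109). Control 1 was the lowest control in both tissues (71.3 and 81.6 TPM, other controls 117 to 137). The amygdala call was lost without NCoR1-KO 2 (adjusted p = 0.0541). No hippocampus value of any gene passed that test between genotypes. Every log2 difference below is on this scale, on which genes of low level show less than their change in TPM.

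Marker genes of other cells and regions differed between libraries, and their part in the clock values was not tested. Hippocampus markers told the tissues apart: 10 of them summed to 874 to 1204 TPM in hippocampus libraries and 356 to 496 TPM in amygdala libraries. In amygdala SMRT-KO, 10 amygdala markers summed to 280 to 445 TPM, below every control (492 to 570) and every NCoR1-KO library (538 to 587) and overlapping the hippocampus libraries (272 to 420). In the same libraries 11 oligodendrocyte markers summed to 8030 to 12110 TPM, against 3928 to 5349 in NCoR1-KO and 2699 to 9514 in control. Microglia markers (8 genes) were at 627 to 684 TPM against 471 to 510 in NCoR1-KO and 527 to 664 in control. Astrocyte markers (9 genes) were at 3652 to 4190 against 3198 to 3283 in NCoR1-KO and 3650 to 4228 in control. In both of these lists NCoR1-KO lay below every control, and SMRT-KO overlapped control. Striatum markers (12 genes) were at 1208 to 1941 TPM in SMRT-KO against 661 to 1148 in NCoR1-KO, choroid plexus markers (10 genes) at 402 to 1012 against 173 to 194, and hypothalamus markers (9 genes) at 194 to 303 against 351 to 553. Control overlapped both knockouts in these lists (463.5 to 1393, 130 to 1438 and 278 to 509.5 TPM). Neuron markers (8 genes) overlapped between the knockouts (5455 to 5778 TPM in SMRT-KO, 5443 to 5974 in NCoR1-KO), and NCoR1-KO lay below control in hippocampus (5196 to 5625 against 6073 to 6567). The list includes Snap25, the gene of the driver's locus, which was lower in each knockout without overlap. In amygdala its mean was 2033 TPM in control, 1184 in NCoR1-KO and 1125 in SMRT-KO (limma adjusted p = 0.00732 and 0.00507 against control), and in hippocampus 2255, 1292 and 1345 (adjusted p = 0.79 and 0.779). Without Snap25, a sum taken after its values were seen, the other 7 neuron markers overlapped in hippocampus (3823 to 4238 TPM in control, 3939 to 4280 in NCoR1-KO, 3370 to 4966 in SMRT-KO) and in amygdala (4030 to 4686, 4320 to 4746 and 4402 to 4571). No marker of these lists was at 0 in all libraries of amygdala SMRT-KO. These differences move with the amygdala comparison of the knockouts, the one in which clock genes were called below. Those of microglia and astrocyte markers also move with amygdala NCoR1-KO against control. In hippocampus 3 libraries stood apart in markers of neighbouring regions: control 2 (striatum, 514 TPM, others 144 to 188), NCoR1-KO 3 (choroid plexus, 14060 TPM) and SMRT-KO 2 (thalamus, 1026 TPM). Of the hippocampus libraries, SMRT-KO 2 also had the highest oligodendrocyte sum (28910 TPM) and the lowest neuron sum (4460 TPM). Its choroid plexus sum was 7197 TPM. Without these 3 libraries no clock gene was called in hippocampus either, and Cry1 and Dbp in SMRT-KO lay below control (log2 differences of -0.19 and -0.11).

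In control tissue the clock genes spanned a range of 9.65 times in hippocampus and 9.83 times in amygdala. In hippocampus, Cry2 was the highest at 97.8 ± 4.58 TPM (SD, n = 4) and Nfil3 the lowest at 10.1 ± 1.75 TPM. Between them lay Nr1d1 (76.4 TPM), Nr1d2 (72.9), Dbp (67.1), Per1 (46.2), Arntl (27.3), Per3 (26.3), Per2 (20.8) and Cry1 (13.3). Of neighbours in this order, the libraries of Cry2 and Nr1d1, of Dbp and Per1, of Per1 and Arntl, and of Per2 and Cry1 did not overlap, and the rest did. In amygdala the order was Cry2 (100.5 TPM), Dbp (84.7), Nr1d1 (84.2), Nr1d2 (80.9), Per1 (48.9), Arntl (27.4), Per3 (25.2), Per2 (21.6), Cry1 (16.7) and Nfil3 (10.2). There Nr1d2 and Per1, Per1 and Arntl, and Cry1 and Nfil3 stood apart.

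No clock gene was called between the control libraries of the tissues, although 32.5% of the 14210 genes tested in both were, and 2 were lower in hippocampus at an unadjusted p under 0.05, as were 25.2% of genes. These were Cry1 and Dbp, with log2 differences of -0.31 ± 0.13 (SE, limma adjusted p = 0.0795) and -0.32 ± 0.15 (adjusted p = 0.113). The Cry1 libraries did not overlap (12.3 to 14.6 TPM in hippocampus, 15.5 to 18.0 in amygdala; 19.1% of genes lay lower in this way), while those of Dbp did (60.6 to 72.5 and 70.3 to 99.4 TPM). Cry1 would be called without hippocampus SMRT-KO 2 (adjusted p = 0.0235) or SMRT-KO 3 (adjusted p = 0.026), and Dbp without SMRT-KO 2 (adjusted p = 0.0341), since all 20 libraries share an estimate of the spread.

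**Figure D1:**
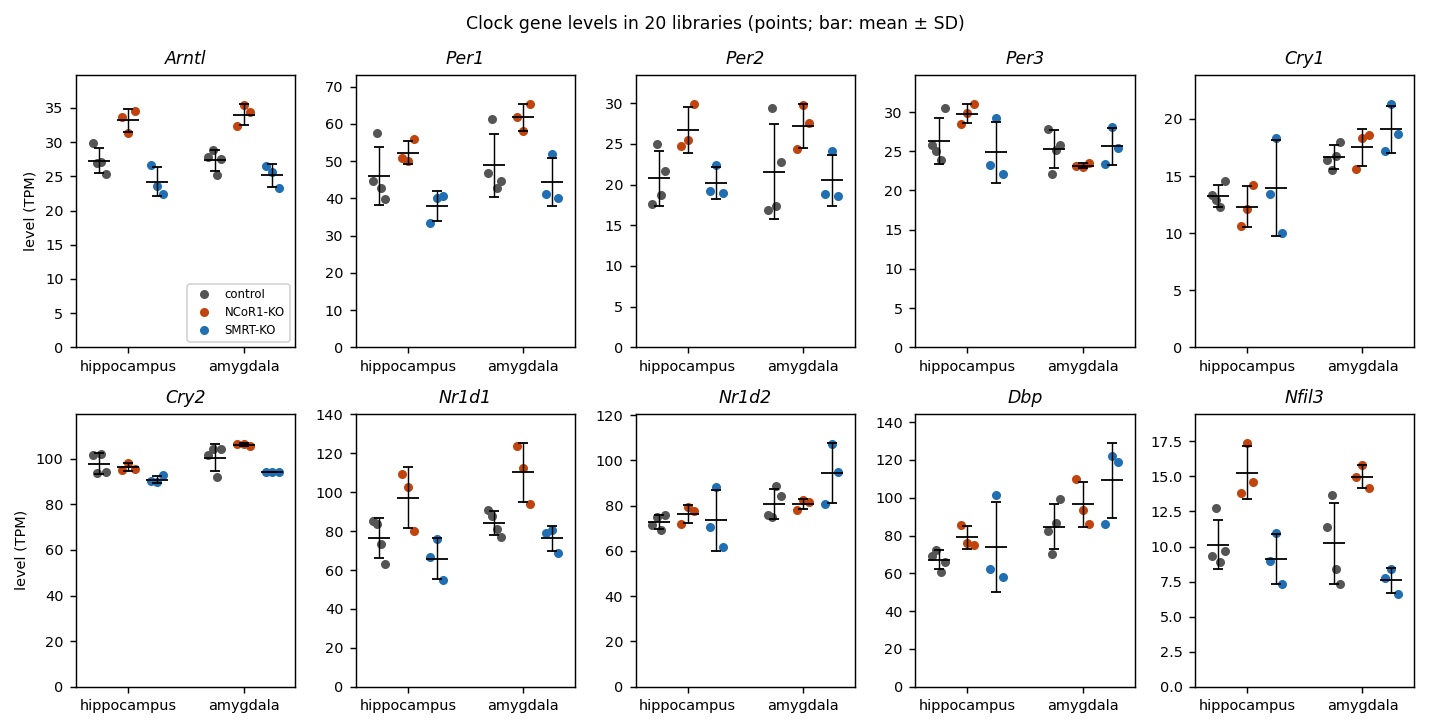
Level of each clock gene in TPM (y axis, from 0) in every library of hippocampus and amygdala, with control in grey, NCoR1-KO in orange and SMRT-KO in blue; the long tick is the mean and the error bar the SD of 3 or 4 libraries. Arntl and Nfil3 in NCoR1-KO lie above every control of the tissue, and Cry1, Nr1d2 and Dbp spread widely in hippocampus SMRT-KO.

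Against control, most clock genes lay somewhat higher in NCoR1-KO tissue and none passed over all genes. In hippocampus 8 of 10 were above control, with a median log2 difference of 0.21 against 0.00 over the 14501 genes tested. At adjusted p under 0.05, 0 clock genes and 0% of genes were called. At an unadjusted p under 0.05, 4 clock genes were higher (Arntl, Per2, Nr1d1 and Nfil3), where 1.88% of genes were higher and 4.54% lay in either direction. The libraries of 3 (Arntl, Dbp and Nfil3) lay above every control, as did those of 4.18% of genes. In amygdala 8 of 10 were above control with a median of 0.25, against -0.03 over 14606 genes. There 0 clock genes and 0.411% of genes were called, and 4 clock genes (Arntl, Per1, Nr1d1 and Nfil3) were higher at an unadjusted p under 0.05, as were 3.3% of genes. There the libraries of Arntl, Cry2, Nr1d1 and Nfil3 lay above every control, as did those of 3.68% of genes. In SMRT-KO the medians were -0.09 in hippocampus (all genes -0.02) and -0.07 in amygdala (all genes -0.03), with 0 clock genes called in either tissue, where 0% and 0.11% of genes were. At an unadjusted p under 0.05, 0 differed in hippocampus SMRT-KO (5.61% of genes), and 2 were higher in amygdala SMRT-KO, Nr1d2 and Dbp (8.42% of genes). Both knockouts were compared with the same controls, so the values of these comparisons are not independent of each other.

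The calls lay between the knockouts in amygdala, where 4 of the 10 clock genes were called, all higher in NCoR1-KO: Arntl, Per1, Nr1d1 and Nfil3. In that comparison 11.5% of 14606 genes were called, 5.03% as higher and 6.46% as lower. The libraries of 6 clock genes (these 4, Per2 and Cry2) lay above SMRT-KO without overlap, as did those of 18.8% of genes. The median of the clock genes was 0.28 and that of all genes -0.00. The 10 genes did not move as a set. Per3, Cry1, Nr1d2 and Dbp were lower in NCoR1-KO, with log2 differences of -0.14, -0.12, -0.22 and -0.17. None of these passed (limma adjusted p from 0.158 to 0.483). In hippocampus the log2 differences of Arntl, Per1, Nr1d1 and Nfil3 were 0.44, 0.46, 0.56 and 0.70, and none passed (adjusted p from 0.617 to 0.704; 0% of genes did). At an unadjusted p under 0.05, 6 clock genes were higher in NCoR1-KO there, with 3.82% of genes, and 6 lay above SMRT-KO without overlap, with 6.44% of genes.

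**Figure D2:**
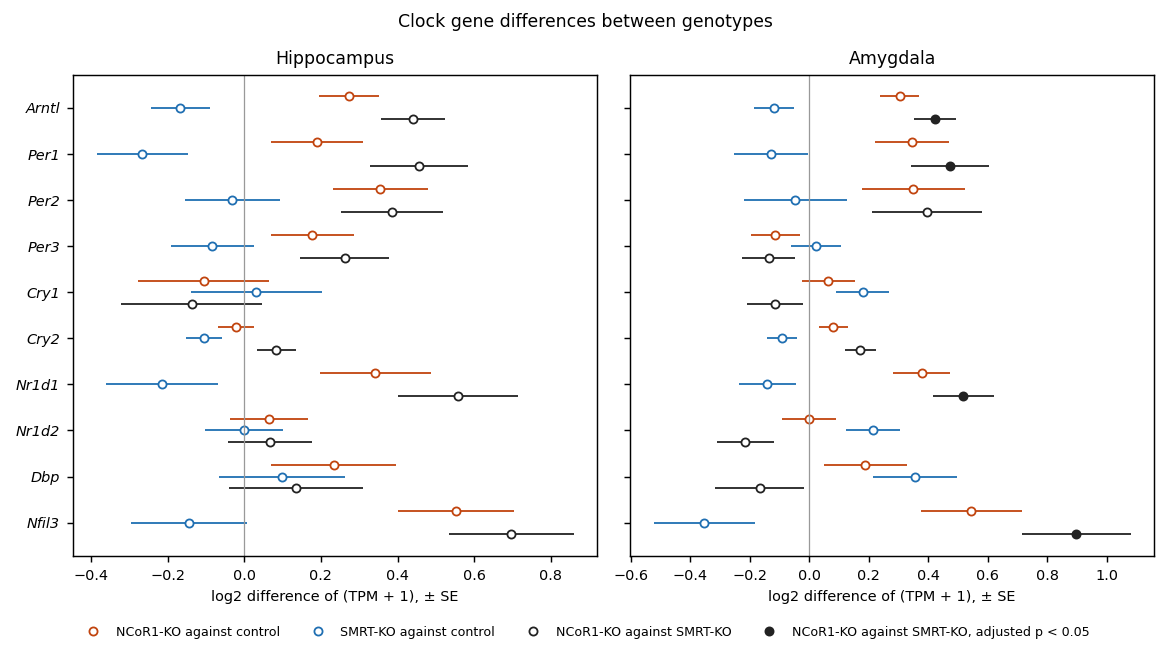
Log2 differences of (TPM + 1) between genotypes (x axis, ± SE of limma's model) for each clock gene in hippocampus (left) and amygdala (right); filled points have an adjusted p under 0.05. The 4 filled points are Arntl, Per1, Nr1d1 and Nfil3 in amygdala NCoR1-KO against SMRT-KO, and the values of Nr1d2 and Dbp lie on either side of 0.

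Arntl, the core activator (chr7:113207465-113314126, plus strand, GRCm38), varied little within groups. Its hippocampus level was 29.8, 27.0, 27.1 and 25.3 TPM in controls 1 to 4, 33.6, 31.4 and 34.5 TPM in NCoR1-KO 1 to 3, with 26.6, 23.6 and 22.5 TPM in SMRT-KO 1 to 3. In amygdala it was 27.8, 28.9, 25.2 and 27.6 TPM in controls, 32.3, 35.4 and 34.4 TPM in NCoR1-KO, with 26.5, 25.7 and 23.3 TPM in SMRT-KO. In each tissue every NCoR1-KO library lay above every other library, and SMRT-KO overlapped control. Arntl was higher in amygdala NCoR1-KO, at 135% of its SMRT-KO level, a log2 difference of 0.42 ± 0.07 (SE, n = 3 against 3, limma adjusted p = 0.0088). That call held without each of the 10 amygdala libraries in turn. Against control the differences were 0.30 ± 0.07 in amygdala (n = 3 against 4, limma adjusted p = 0.0883) and 0.27 ± 0.08 in hippocampus (limma adjusted p = 0.998, unadjusted p = 0.00584). A two-sided exact permutation test of these 2 differences gave p = 0.0571 each, the smallest that 35 arrangements allow, so it cannot pass 0.05. The SMRT-KO values were -0.12 ± 0.07 in amygdala and -0.17 ± 0.08 in hippocampus against control, and neither passed (limma adjusted p = 0.331 and 0.779).

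Nfil3, the D-box repressor and the other clock gene here with a ROR core in its window (chr13:52967209-52981073, minus strand), had the largest difference of the clock genes between the knockouts in each tissue. Its hippocampus level was 9.31, 12.7, 8.88 and 9.66 TPM in controls 1 to 4, 13.8, 17.4 and 14.6 TPM in NCoR1-KO, with 8.98, 10.96 and 7.36 TPM in SMRT-KO. In amygdala it was 11.4, 13.7, 8.40 and 7.36 TPM in controls, 15.0, 15.8 and 14.2 TPM in NCoR1-KO, with 7.75, 8.42 and 6.64 TPM in SMRT-KO. Again every NCoR1-KO library was above all others of its tissue, and control 2 was the highest control in both. Nfil3 in amygdala NCoR1-KO was 197% of its SMRT-KO level, a log2 difference of 0.90 ± 0.18 (limma adjusted p = 0.0173). Without NCoR1-KO 2 it was not called (adjusted p = 0.0656), nor was it without SMRT-KO 3 (adjusted p = 0.0741). Against control the differences in NCoR1-KO were 0.55 ± 0.17 in amygdala (adjusted p = 0.201) and 0.55 ± 0.15 in hippocampus (adjusted p = 0.998). In SMRT-KO they were -0.35 ± 0.17 and -0.14 ± 0.15 (adjusted p = 0.256 and 0.858).

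Nr1d1, which encodes REV-ERBα (chr11:98767932-98775333, minus strand), varied more between libraries of a group than Arntl did. Its hippocampus levels were 85.3, 83.6, 73.4 and 63.2 TPM in controls 1 to 4, 109.4, 103 and 79.9 TPM in NCoR1-KO, with 66.7, 75.9 and 54.8 TPM in SMRT-KO. Its amygdala levels were 90.8, 87.8, 81.2 and 77.1 TPM in controls, 124, 113 and 94.1 TPM in NCoR1-KO, with 79.1, 80.8 and 69.0 TPM in SMRT-KO. NCoR1-KO stood above every control in amygdala, while in hippocampus NCoR1-KO 3 lay among the controls. Nr1d1 was higher in amygdala NCoR1-KO, at 144% of SMRT-KO (log2 difference 0.52 ± 0.10, limma adjusted p = 0.0155). Leaving out NCoR1-KO 2 or SMRT-KO 3 ended the call (adjusted p = 0.0592 and 0.0687). Against control, Nr1d1 in NCoR1-KO differed by 0.38 ± 0.10 in amygdala (adjusted p = 0.129) and 0.34 ± 0.15 in hippocampus (adjusted p = 0.998). In SMRT-KO the values were -0.14 ± 0.10 and -0.22 ± 0.15 (adjusted p = 0.417 and 0.791). The end of Nr1d1 overlaps that of Thra, the thyroid hormone receptor α gene, on the other strand over 1075 bases, and the sources used here do not say whether strand was used in counting. Thra itself was not called in any comparison of genotypes, with log2 differences of -0.08 and -0.11 in amygdala and hippocampus NCoR1-KO against control.

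Nr1d2, which encodes REV-ERBβ (chr14:18204054-18239127, minus strand), was near control in NCoR1-KO. Its mean level in NCoR1-KO was 99.7% of control in amygdala and 105% in hippocampus (log2 differences -0.00 ± 0.09 and 0.06 ± 0.10). In amygdala SMRT-KO the levels were 80.9, 107 and 94.9 TPM, against 75.7, 75.1, 88.8 and 84.2 TPM in controls. The groups overlapped, and the log2 difference of 0.21 ± 0.09 did not pass (limma adjusted p = 0.203). Between the knockouts in amygdala Nr1d2 differed by -0.22 ± 0.10, NCoR1-KO being the lower (adjusted p = 0.158). Without SMRT-KO 1 that difference was -0.32 and passed (adjusted p = 0.0375). In hippocampus SMRT-KO the range was 61.8 to 88.3 TPM, and the highest value was in SMRT-KO 2.

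Among the Per genes, which encode repressors of BMAL1, Per1 and Per2 lay higher in NCoR1-KO and Per3 did not do so in both tissues. Per1 (chr11:69095217-69109960, plus strand) was at 46.7, 61.4, 42.7 and 44.6 TPM in amygdala controls 1 to 4, 61.8, 58.1 and 65.4 TPM in NCoR1-KO, with 41.3, 51.9 and 40.1 TPM in SMRT-KO. In hippocampus it was at 44.6, 57.5, 42.7 and 39.8 TPM in controls, 50.97, 50.03 and 55.95 TPM in NCoR1-KO, with 33.4, 40.05 and 40.6 TPM in SMRT-KO. NCoR1-KO was above SMRT-KO without overlap in both tissues, and control 2 reached the NCoR1-KO levels in both. Per1 was higher in amygdala NCoR1-KO, at 139% of SMRT-KO, a log2 difference of 0.47 ± 0.13 (limma adjusted p = 0.0444). This call was close to the threshold: it was lost without control 1 or 4, or without any of the 6 knockout libraries (adjusted p from 0.0513 to 0.146). Against control the NCoR1-KO differences were 0.34 ± 0.12 in amygdala (adjusted p = 0.258) and 0.19 ± 0.12 in hippocampus (adjusted p = 0.998). Per1 and Nr1d1 lie on the chromosome of the targeted gene, 6.64 and 36.3 Mb from Ncor1.

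Per2 (chr1:91415982-91459324, minus strand) was at 16.8, 29.4, 17.3 and 22.8 TPM in amygdala controls 1 to 4, 24.4, 29.7 and 27.5 TPM in NCoR1-KO, with 18.9, 24.1 and 18.6 TPM in SMRT-KO. In hippocampus it was at 17.6, 25.03, 18.8 and 21.7 TPM in controls, 24.7, 25.4 and 29.9 TPM in NCoR1-KO, with 19.2, 22.4 and 18.9 TPM in SMRT-KO. Control 2 was the highest control in each tissue and overlapped NCoR1-KO, above NCoR1-KO 1 in hippocampus and above NCoR1-KO 1 and 3 in amygdala. NCoR1-KO 2 and 3 in hippocampus and NCoR1-KO 2 in amygdala lay above every control. Its log2 differences in NCoR1-KO against control were 0.35 ± 0.17 in amygdala and 0.35 ± 0.12 in hippocampus (limma adjusted p = 0.431 and 0.998). Between the knockouts they were 0.40 ± 0.19 and 0.39 ± 0.13 (adjusted p = 0.173 and 0.728), with no overlap of libraries.

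Per3 (chr4:151003652-151044665, minus strand) lies within Camta1, a gene on the same strand, over all its 41014 bases, so reads there could be assigned to either. Its level ranged from 22.04 to 28.1 TPM over the 10 amygdala libraries and from 22.1 to 31.0 TPM over those of hippocampus. The NCoR1-KO difference from control was -0.11 ± 0.08 in amygdala and 0.18 ± 0.11 in hippocampus, and neither passed (limma adjusted p = 0.591 and 0.998). The difference between these 2 effects, 0.29 ± 0.14, did not pass either (adjusted p = 0.998, unadjusted p = 0.0515).

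The Cry genes encode the second arm of BMAL1's repressors. Cry2 (chr2:92403646-92434043, minus strand) had the highest mean TPM of the clock genes in controls of each tissue. In amygdala it was at 107, 107 and 105 TPM in NCoR1-KO, while SMRT-KO had 94.2, 94.0 and 94.1 TPM and controls 1 to 4 had 102, 104, 91.8 and 104 TPM. The knockouts stood apart with control 3 below both, and their log2 difference of 0.17 ± 0.05 was near the threshold (limma adjusted p = 0.0582). It passed without control 3 (adjusted p = 0.0289). In hippocampus the SMRT-KO libraries (89.7 to 92.8 TPM) lay below every control (93.6 to 102 TPM), with a log2 difference of -0.10 ± 0.05 (adjusted p = 0.779). Cry2 was the 1 clock gene whose groups did not overlap in that comparison, where 2.71% of genes lay below control in this way. D930015M05Rik overlaps Cry2 on the other strand over 23417 bases. Cry1 (chr10:85131700-85185064, minus strand) had NCoR1-KO differences from control of 0.06 ± 0.09 in amygdala and -0.11 ± 0.17 in hippocampus. In SMRT-KO its amygdala difference was 0.18 ± 0.09 (adjusted p = 0.267), and in hippocampus SMRT-KO it ranged from 10.02 to 18.4 TPM.

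Dbp, the D-box activator and an output of the loop (chr7:45705088-45710203, plus strand), had its highest library in SMRT-KO 2 in both tissues. In hippocampus it was at 68.9, 72.5, 60.6 and 66.2 TPM in controls 1 to 4, 85.7, 76.3 and 74.95 TPM in NCoR1-KO, with 62.3, 102 and 58.2 TPM in SMRT-KO. In amygdala it was at 82.5, 70.3, 86.4 and 99.4 TPM in controls, 109.7, 93.5 and 86.0 TPM in NCoR1-KO, with 86.4, 122 and 119 TPM in SMRT-KO. Hippocampus NCoR1-KO was above every control, and the other groups overlapped control. None of these differences passed. The largest was that of amygdala SMRT-KO against control, 0.36 ± 0.14 (limma adjusted p = 0.176). In hippocampus NCoR1-KO the value was 0.23 ± 0.16 (adjusted p = 0.998), and that of hippocampus SMRT-KO was 0.10 ± 0.16 with SMRT-KO 2 and -0.15 without it. Dbp overlaps Sphk2 on the other strand over 737 bases.

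The NCoR1-KO and SMRT-KO effects were also compared between the tissues. No clock gene passed, and 0% of the 14210 genes did (0 clock genes at an unadjusted p under 0.05 for either effect, where 3.67% and 8.85% of genes were). For Arntl the NCoR1-KO effect in hippocampus minus that in amygdala was -0.03 ± 0.10, for Nr1d1 -0.04 ± 0.18 and for Nfil3 0.01 ± 0.24 (limma adjusted p from 0.998 to 1). For Dbp and Nr1d2 the SMRT-KO effects differed by -0.26 ± 0.23 and -0.22 ± 0.14 (adjusted p = 0.83 and 0.725).

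The other 22 clock genes listed for comparison were partners of BMAL1 and ROR receptors, further E-box repressors, kinases and ubiquitin ligases of the clock, and other output factors. None of them was called in a hippocampus comparison of genotypes, where limma's unadjusted p was under 0.05 for 4 in NCoR1-KO against control, 2 in SMRT-KO against control and 5 between the knockouts (4.54%, 5.61% and 6.59% of all genes). In amygdala NCoR1-KO against control 1 fell (Rora) and 0 rose, in SMRT-KO against control 1 rose (Rora) and 0 fell, and between the knockouts 4 were lower in NCoR1-KO (Rora, Clock, Rorb and Hlf) and 0 higher. Of all genes, 0.411%, 0.11% and 11.5% were called in these comparisons. The medians of the 22 were -0.01, 0.03 and -0.13. Between control tissues 8 were called, 2 higher and 6 lower in hippocampus, where 32.5% of all genes were called. Fbxw11 and Nampt were higher (log2 differences of 0.21 and 0.17). Rora, Npas2, Rorb, Btrc, Csnk1e and Tef were lower (-0.95, -0.72, -0.71, -0.21, -0.20 and -0.20). Btrc was not called without hippocampus control 4 (limma adjusted p = 0.0524). Of the corepressor complex, Hdac3 and Tbl1x were called as lower in hippocampus (-0.19 and -0.33).

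The ROR receptors and CLOCK act on the positive side of the loop. Rora, the gene of RORα, was at 19.6, 15.3, 20.3 and 17.6 TPM in amygdala controls 1 to 4, 10.5, 8.51 and 9.34 TPM in NCoR1-KO, with 27.7, 33.5 and 31.8 TPM in SMRT-KO. The 3 genotypes did not overlap. Rora fell in NCoR1-KO by 0.87 on the log2 scale against control (SE 0.11, limma adjusted p = 0.0162) and rose by 0.74 ± 0.11 in SMRT-KO (adjusted p = 0.0473). Those calls were lost without control 1 or NCoR1-KO 2 (adjusted p = 0.0715 and 0.0619), and without any amygdala library but control 3 or SMRT-KO 1 (adjusted p from 0.0518 to 0.232). Between the knockouts Rora differed by -1.62 ± 0.12 (adjusted p = 0.000223), a call that held without each library in turn. Rora is also among 11 markers of thalamus, whose sums overlapped between the amygdala genotypes (201 to 291 TPM in control, 210 to 229 in SMRT-KO and 204 to 285 in NCoR1-KO). In hippocampus the Rora libraries overlapped, with a NCoR1-KO difference from control of -0.70 ± 0.36 (adjusted p = 0.998).

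Clock, the gene of BMAL1's partner, was at 36.9, 38.4, 43.5 and 34.8 TPM in amygdala controls, 26.4, 29.8 and 32.3 TPM in NCoR1-KO, with 46.7, 47.7 and 44.8 TPM in SMRT-KO. The genotypes did not overlap, and their means were in the order opposite to those of Arntl. The difference between the knockouts was -0.64 ± 0.09 (limma adjusted p = 0.00435) and held without each library in turn, while those from control did not pass (-0.37 ± 0.08, adjusted p = 0.1, and 0.27 ± 0.08, adjusted p = 0.108). In hippocampus Clock overlapped between genotypes (23.6 to 45.3 TPM). Npas2, the other partner, was not called between genotypes, and in controls it was lower in hippocampus by -0.72 ± 0.11 (17.2 ± 2.47 against 28.8 ± 2.73 TPM, adjusted p = 0.000113). Rorb was lower in amygdala NCoR1-KO than in SMRT-KO by -0.59 ± 0.16 (adjusted p = 0.0373), lost without any NCoR1-KO library or SMRT-KO 2 or 3 (adjusted p from 0.0563 to 0.134).

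Among the other output factors, Hlf, a D-box activator like Dbp, had amygdala levels of 116 ± 32.9 TPM in SMRT-KO and 74.05 ± 5.44 TPM in NCoR1-KO, a log2 difference of -0.60 ± 0.16 (limma adjusted p = 0.0413). The call was lost without control 3 or 4, any NCoR1-KO library, or SMRT-KO 2 or 3 (adjusted p from 0.05 to 0.118). Tef, the third of these activators, was at 250.4 ± 9.37 and 240.5 ± 9.69 TPM and did not differ beyond its spread. The E-box repressors Gm129 (also called Ciart), Bhlhe40 and Bhlhe41 had amygdala differences between the knockouts of 0.05 ± 0.13, 0.36 ± 0.19 and 0.30 ± 0.11, and none passed (adjusted p = 0.815, 0.211 and 0.103). Of the corepressor complex, Hdac3 was higher in amygdala NCoR1-KO than in SMRT-KO by 0.21 ± 0.05 (134 ± 3.58 against 115 ± 4.17 TPM, adjusted p = 0.0241). That call was lost without NCoR1-KO 1 or 2, or SMRT-KO 2 or 3 (adjusted p from 0.0562 to 0.0942).

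Levels of several clock genes went together between the tissues in libraries of the same genotype and number. The labels do not say that a number marks an animal. Over these 10 pairs of libraries, Nr1d1 had a Pearson r of 0.962 and a Spearman rho of 0.952 (permutation p = 4e-05 and 0.00011, Benjamini-Hochberg adjusted over the 10 genes 0.0004 and 0.00055). Without the 2 pairs farthest from the median in hippocampus r was 0.933, and after centring each tissue on its genotype means it was 0.952. The median r over 14210 genes was 0.212, and 0.12% of them had an r as high as that of Nr1d1. For Per2, r was 0.921 and rho 0.964 (adjusted permutation p = 0.00257 and 0.00055), 0.965 without 2 pairs and 0.891 after centring. Per1 had an r of 0.871 and a rho of 0.794 (adjusted permutation p = 0.00326 and 0.0176), 0.865 without 2 pairs and 0.792 after centring.

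Nfil3 had an r of 0.894 and a rho of 0.879 (adjusted permutation p = 0.00257 and 0.0053), 0.842 without 2 pairs and 0.683 after centring. Its NCoR1-KO libraries lay above all others in each tissue. For every gene the permutations moved pairs across genotypes, so p-values of the uncentred r take in differences between genotypes. For Arntl the NCoR1-KO pairs stood apart from the rest, and after centring its r was 0.308. The relation could not be tested within a genotype, since none has 6 pairs. Cry1, Cry2, Nr1d2, Dbp and Per3 did not pass, with r of 0.555, 0.2, 0.236, 0.339 and 0.00601 (adjusted permutation p from 0.157 to 0.986). For Dbp, SMRT-KO 3 was the lowest library in hippocampus (58.2 TPM) and the second highest in amygdala (119 TPM).

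**Figure D3:**
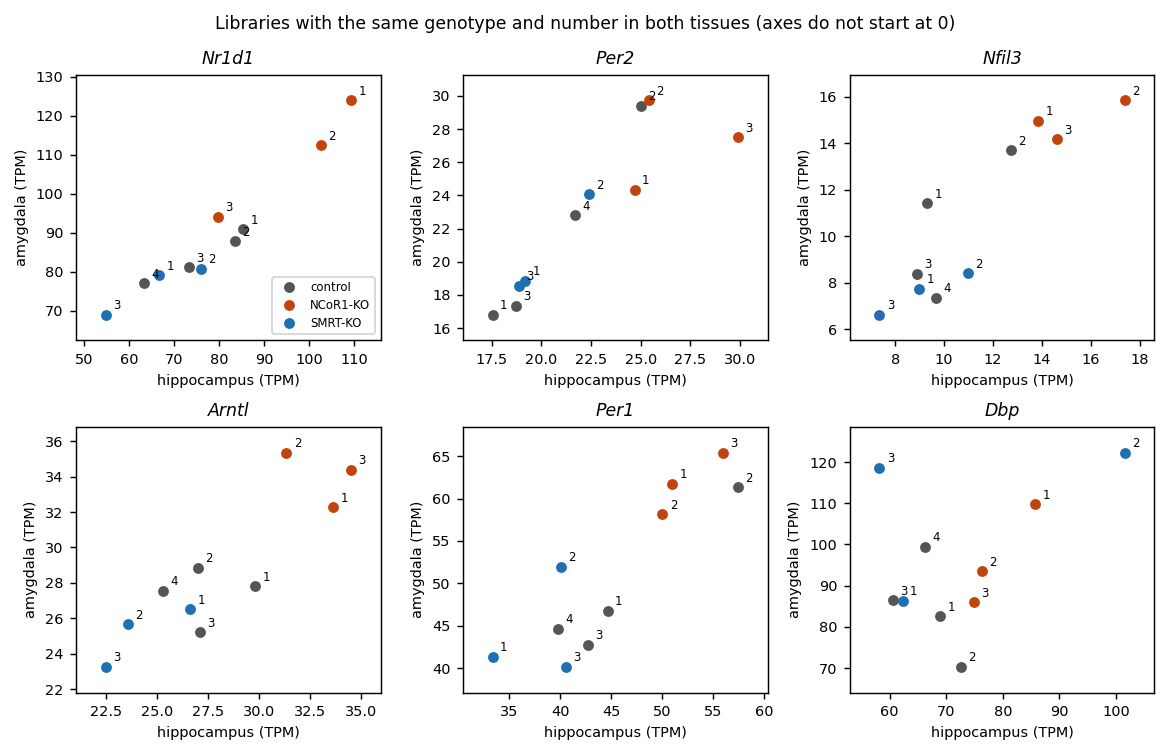
Level of 6 clock genes in the hippocampus library (x axis, TPM) and the amygdala library (y axis, TPM) of the same genotype and number, 10 points per gene, with the number beside each point. The points of Nr1d1, Per2, Per1 and Nfil3 rise together, with control 2 near the NCoR1-KO libraries in the latter 3, and those of Dbp scatter.

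Within a tissue, 90 relations between 2 clock genes were computed over its 10 libraries, 45 in each. In hippocampus 38 were positive, and 4 passed at an adjusted permutation p under 0.05: Per2 with Nfil3 (r = 0.866), Nr1d1 with Nfil3 (0.815), Nr1d2 with Dbp (0.814) and Per3 with Nr1d2 (0.771). Their rho were 0.891, 0.733, 0.83 and 0.842, the adjusted p of r from 0.0357 to 0.0373 (of rho, 0.101 for Nr1d1 with Nfil3), and r after centring on the genotypes 0.667, 0.531, 0.822 and 0.838. Without the 2 libraries farthest from the median of the former gene, Nr1d2 with Dbp went to 0.454 and Per3 with Nr1d2 to 0.605, so these rest in part on those libraries.

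In amygdala 22 of 45 were positive and 8 passed, 4 of them with Arntl, and before centring the clock genes fell into 2 blocks. One held Arntl, Nfil3, Nr1d1, Per1, Per2 and Cry2, which were positively related to each other. The other held Per3, Cry1, Nr1d2 and Dbp, again positively related among themselves and, but for Cry1 with Per2 (r = 0.0941), negatively to the former. Per1 with Nfil3 had r = 0.895 and rho = 0.867, and Nr1d1 with Nfil3 0.892 and 0.964 (adjusted permutation p of r = 0.0365 and 0.0045). After centring on the genotypes these were 0.738 and 0.619. The permutations moved libraries across genotypes in both tissues, so p-values of the uncentred r take in differences between genotypes. In amygdala every NCoR1-KO library of Nfil3 and Nr1d1 lay above all others, as with Arntl. Over both tissues 3 relations passed after centring, which are not named here. The largest r after centring lay in hippocampus: Cry1 with Nr1d2 (0.93), Per3 with Cry1 (0.85) and Per3 with Nr1d2 (0.838). In amygdala, Per1 with Per2 had r = 0.847 and rho = 0.733 (adjusted permutation p of r = 0.0373), and 0.766 after centring. Since the NCoR1-KO libraries of Arntl stand apart, its relations are given only after centring: r was 0.598 with Cry2, 0.572 with Nfil3, 0.496 with Per1 and 0.234 with Nr1d1. Cry1 with Nr1d2, in the other block, had r = 0.845 and rho = 0.818 (adjusted permutation p = 0.0357), 0.793 after centring and 0.564 without the 2 libraries farthest from the median of Cry1. Over all pairs the median r was -0.101 in amygdala and 0.0766 after centring, and in hippocampus 0.491 and 0.178.

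**Figure D4:**
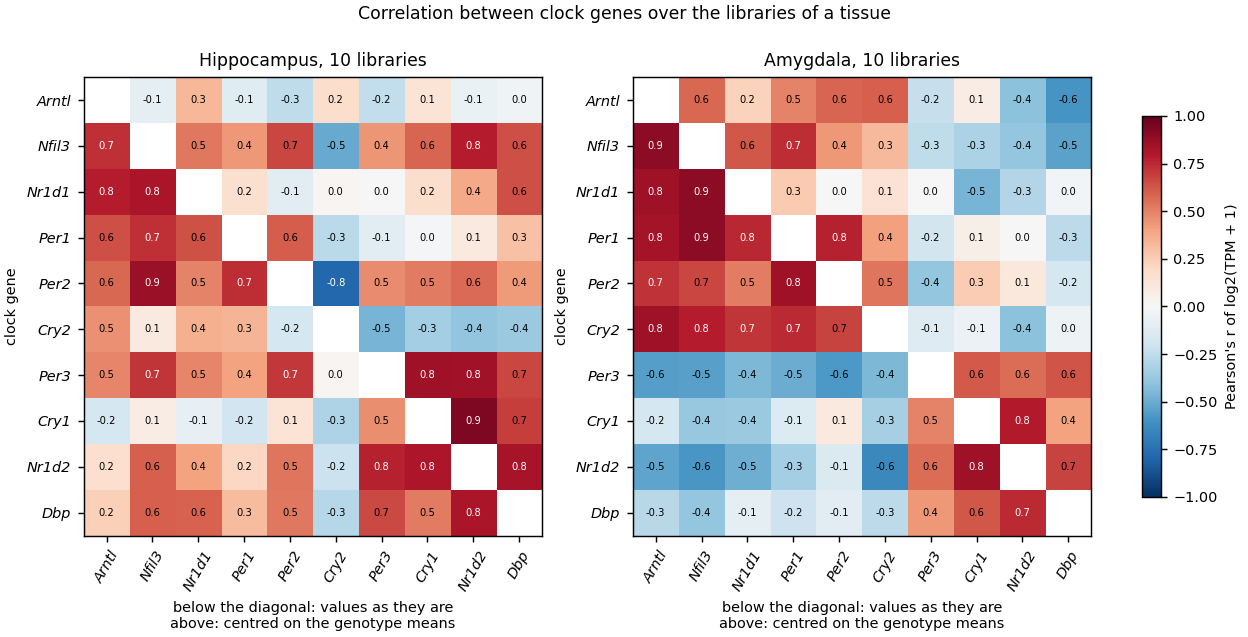
Pearson's r of log2(TPM + 1) between each pair of clock genes over the 10 libraries of hippocampus (left) and amygdala (right), from -1 (blue) to 1 (red); cells below the diagonal use the values as they are and cells above it values centred on the genotype means. In amygdala the first 6 genes form a red block below the diagonal that is blue against Per3, Nr1d2 and Dbp, and much of the blue is paler above it.

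The genes most like Dbp were ranked by the smaller of the 2 r values, 1 per tissue over 10 libraries, among 11519 genes with a mean of at least 5 TPM in both. They were Ckb (0.863), Dhx16 (0.84), Esrra (0.821), Slc25a33 (0.809), Cntfr (0.785) and Eef2 (0.783), with Nr1d2 at rank 15 (0.743) and Hlf at rank 19 (0.735). The genes most like Arntl were Cebpa (0.836), Zswim8 (0.816), Zfp286 (0.814), Mef2d (0.805), Fam65a (0.804) and Diablo (0.795), with Nr1d1 at rank 8 (0.783) and Nfil3 at rank 38 (0.731). The NCoR1-KO libraries take part in each of these values. So does hippocampus SMRT-KO 2, the library that stood apart in thalamus markers. Of the hippocampus libraries it was the highest for Dbp (102 TPM), Hlf (108 TPM) and Nr1d2 (88.3 TPM). Its part in the ranks was not tested.

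Genes that respond to neuronal activity or to glucocorticoids lay higher in NCoR1-KO as well. Per1 is known to respond to both signals, and the part of these signals in the clock values was not tested. All 12 activity-induced genes were above control in NCoR1-KO in each tissue and 0 passed. Their median log2 differences were 0.35 in hippocampus and 0.42 in amygdala, against 0.00 and -0.03 over all genes. Summed, they reached 625 to 812 TPM in hippocampus NCoR1-KO and 599 to 859 TPM in amygdala NCoR1-KO, overlapping control in each tissue. Their summed level was highest, among controls, in control 2 of each tissue (814 and 761 TPM, other controls 424 to 608), the control in which Per1, Per2 and Nfil3 were also highest. In amygdala SMRT-KO it was highest in SMRT-KO 2 (925 TPM, the others 459 and 538), again the library of highest Per1, Per2 and Nfil3 in its group. Other groups differed from this pattern: hippocampus SMRT-KO 2 and amygdala NCoR1-KO 2 had the lowest sums of their groups (405 and 599 TPM) and the highest Per2 and Nfil3. The 10 glucocorticoid-induced genes summed to 771 to 808 TPM in hippocampus NCoR1-KO against 617 to 683 in control, and to 599 to 644 against 516 to 587 TPM in amygdala, with no overlap in either tissue. In hippocampus SMRT-KO these genes summed to 614 to 665 TPM. They summed to 485 to 637 TPM in amygdala SMRT-KO, overlapping both NCoR1-KO and control. In amygdala 2 of them, Ddit4 and Nfkbia, were higher in NCoR1-KO than in SMRT-KO by log2 differences of 0.57 and 0.30 (limma adjusted p = 0.0234 and 0.0294), a comparison in which 11.5% of genes were called and 5.03% were higher. Neither passed against control, with differences of 0.29 and 0.07 in NCoR1-KO (adjusted p = 0.345 and 0.711) and -0.28 and -0.23 in SMRT-KO (adjusted p = 0.204 and 0.0953).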

How the data were processed

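Per the labels' protocols, total RNA was extracted and libraries were made with a stranded poly(A) kit. The authors deposited 1 table of TPM values per tissue. The submitters' processing notes name RSEM 1.3.3, STAR 2.5.3a, fastp 0.21.0, bcl2fastq and the build mm10. The gene annotation and the use of strand in counting are not given in the sources used here. TPM keeps no depth, so the depth behind each value is unknown; the libraries held 13787 to 14509 genes at 1 TPM or more.

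Values were taken as log2(TPM + 1) for genes of at least 1 TPM in 3 libraries of the tissue (of each tissue for comparisons between tissues). limma 3.58.1 (R 4.3.3; eBayes with a trend) was fitted over all genes, with the 3 genotypes of a tissue, or all 6 groups, sharing a spread. Benjamini-Hochberg adjustment ran over all genes tested, with a threshold of 0.05. On simulated data with the real means, changes of 0.5 and 1 on the log2 scale were recovered at 62% and 89% in hippocampus NCoR1-KO against control, over 100 changed genes each among 14501. For amygdala NCoR1-KO against control 77% and 94% were recovered among 14606. The simulated noise was normally distributed and independent between genes, and changed genes were drawn only from those of higher level. Ncor1 was not called in the real hippocampus comparison, so these shares need not hold for the real data. Single values were also tested by a two-sided exact permutation test, whose smallest p is 0.0571 for 3 against 4 libraries and 0.1 for 3 against 3, so that neither can reach 0.05. Relations across libraries used 100000 permutations (scipy 1.17.1).

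All 10 clock genes are named, though not each of them in every comparison. Of the other clock genes and the corepressor complex, those called are named, with Clock, Npas2, Gm129, Bhlhe41, Tef, Hlf, Ncor1 and Hdac3 always. Of Thra, Camta1 and Sphk2 the overlap with a clock gene was the reason, and Bhlhe40 was added after its values were seen. The clock genes and lists were chosen with earlier results of these data known. Positions are from the GENCODE M21 annotation of GRCm38 and promoter windows from RefSeq (GRCm38.p6). Another pseudocount, filters, quantile normalization, another prior, the replicate number as a block, fits on 2 groups and leaving out libraries were tried. The gene targeted in SMRT-KO is not reported here.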

Additional observations from a re-analysis of the deposited data

How the results depend on the processing

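Of 1090 values with each library left out in turn, 1010 kept their direction and their side of the threshold, 40 lost and 5 gained a call and 35 changed sign; under the other settings 606 of 633 kept both, 15 lost and 2 gained a call and 10 changed sign. No difference that changed sign was larger than 0.14 on the log2 scale as reported. The cause of these changes was not tested. All genes called in amygdala NCoR1-KO against control, 60 as reported, were 16 with no filter, 17 with no variance trend and 4 with 2 groups. In amygdala SMRT-KO against control, 16 as reported, they were 2 with no filter, 143 at a mean of at least 5 TPM, 3 with no trend and 2 with 2 groups. Between the amygdala knockouts, 1679 as reported, they were 1094 with no trend. Where 0 were called as reported, 2 groups gave 1 in hippocampus NCoR1-KO against control and 5 between the hippocampus knockouts, quantile normalization gave 1 for each hippocampus knockout against control, and no filter gave 1 for the SMRT-KO effect between tissues. Among the clock genes in amygdala, Per1 lost its call with no filter (adjusted p = 0.0687) and with no trend (adjusted p = 0.0675), and Cry2 gained one with 2 groups (adjusted p = 0.0399). Rora lost its amygdala call in SMRT-KO with no filter, no trend or 2 groups (adjusted p = 0.0834, 0.0888 and 0.113) and in NCoR1-KO with 2 groups (0.0568). Between the amygdala knockouts Rorb lost its call with no filter, quantile normalization or no trend (0.0606, 0.0577 and 0.055), and Hlf with no filter, no trend or 2 groups (0.0664, 0.0655 and 0.0666).

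Same-numbered libraries of different genotypes did not deviate together (18 pairs, r from -0.472 to 0.478, 4 above 0.1), while those of the same genotype in both tissues had r from 0.000814 to 0.48, with 7 of 10 above 0.1. The best match was sought only among the 3 or 4 libraries of the same genotype in the other tissue. It was the library of the same number for 8 of 10. With the replicate block, the amygdala counts of all genes were 4 for SMRT-KO against control and 854 between the knockouts, and Per1 and Hdac3 lost their calls there (adjusted p = 0.0598 and 0.0562), as did Rora in amygdala SMRT-KO against control (0.0852). In that fit Nr1d2 was 0.018 in hippocampus SMRT-KO and 0.018 in amygdala NCoR1-KO against control, and between the control tissues 1 clock gene was called, Cry1 (adjusted p = 0.0415). After centring on the genotypes, 3 of 5 relations between tissues and 3, against 12, between clock genes passed. Changes of sign under quantile normalization were Per2 at 0.011 and Nr1d2 at 0.0021 in hippocampus SMRT-KO, Nr1d2 at 0.0075 in amygdala NCoR1-KO, and Arntl at 0.019, Per2 at 0.012 and Cry2 at 0.0038 between control tissues. Without hippocampus control 2, NCoR1-KO 3 and SMRT-KO 2, Cry1 was -0.19 and Dbp -0.11 in SMRT-KO against control.

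With each library left out, the clock genes called between the amygdala knockouts ranged from 1 to 5 and between control tissues from 0 to 2. All genes called ranged from 246 to 2218 between the amygdala knockouts, 0 to 126 in amygdala NCoR1-KO and 0 to 697 in amygdala SMRT-KO against control, 0 to 1 in each hippocampus comparison and 0 to 18 for the SMRT-KO effect between tissues. Log2 differences ranged, in hippocampus SMRT-KO against control, from -0.17 to 0.23 for Cry1, -0.15 to 0.25 for Dbp, -0.14 to 0.11 for Nr1d2 and -0.11 to 0.059 for Per2. Between the hippocampus knockouts they ranged from -0.34 to 0.068 for Cry1, -0.014 to 0.38 for Dbp and -0.049 to 0.20 for Nr1d2. In amygdala they ranged from -0.036 to 0.043 for Nr1d2 in NCoR1-KO, and from -0.16 to 0.11 for Per2 and -0.043 to 0.083 for Per3 in SMRT-KO. Between control tissues they ranged from -0.046 to 0.030 for Arntl, -0.12 to 0.16 for Nfil3, -0.19 to 0.032 for Per1, -0.13 to 0.12 for Per2 and -0.013 to 0.11 for Per3.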
